A study of Mus musculus with 16 samples.

Results

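The transcripts described here belong to 7 genes of hippocampal inhibitory neurons, chosen by name from the 24972 genes listed for every library: Gad1, Gad2, Slc32a1, Lhx6, Pvalb, Reln and Calb2. All 7 were listed in all 16 libraries and all 7 passed the filter on low values in every comparison. The study sequenced bulk RNA from the dentate gyrus (DG), CA3 and CA1, dissected by hand from dorsal hippocampus slices of 3 trained and 3 untrained ArcCreERT2::eYFPflx mice. Trained mice had learned active place avoidance, a spatial task on a turning platform with an unmarked sector where the floor gives a shock, and untrained mice had the same arena exposure with the shock off. Libraries numbered 3 trained and 3 untrained in CA1, 3 and 2 in CA3, and 3 and 2 in DG. The number in a library's title was taken to name the mouse, which the titles do not state.

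All groups shared the ArcCreERT2::eYFPflx genotype on a C57BL/6 background, an age of 3 to 4 months, a retention test with the shock off 24 h after the last training session, and tissue collection 60 min after that test. In this genotype the Arc promoter drives a tamoxifen-dependent Cre recombinase, and the dissected pieces of a mouse were pooled by subregion. The methods name 2 females and 1 male among the trained mice and 1 female and 2 males among the untrained ones. Each value is a count per gene, estimated from reads and rescaled by the study so that libraries can be compared, here called a normalized count. The library sums lay between 7607326 and 7984931 normalized counts, and the spacing of the lowest values put the reads behind a library at about 2540000 to 15120000, which is an approximation. Between 7567 and 9759 genes were at 0 in 7 libraries, among them all 3 of trained CA1 and both of untrained DG, and between 3124 and 5944 in the other 9, among them all 3 of untrained CA1 and all 3 of trained DG. In CA1 and in DG, in opposite directions, this count and training cannot be told apart. Xist, transcribed from the inactive X chromosome of females, was at 7601 or more in all 9 trained libraries and at 52.4 or less in 6 of the 7 untrained ones. For the CA1 libraries of all 3 untrained mice this goes against the female named among those. Xist alone does not settle whether a trained mouse was male, since Y-linked RNA stood beside it in some trained libraries. The Y-linked gene Ddx3y was at 448 to 553 in the 6 untrained libraries of low Xist and at 1.66 to 70.9 in the 6 libraries of trained mice 1 and 2. It was at 101, 92.9 and 255 in CA1, CA3 and DG of trained mouse 3 and at 201 in CA3 untrained 1. Y-linked RNA was thus present beside high Xist in these 4 libraries and, at 70.9, in CA1 trained 1, and their sex cannot be told from these genes. The library labelled CA3 untrained 1 had an Xist value of 10587, against 26.1 and 25.5 in the CA1 and DG libraries of the mouse with that number, which goes against their being from 1 animal. Calls lost without it are given beside the results.

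GABA is the main inhibitory transmitter of the forebrain, and its release needs enzymes that make it and a carrier that loads it into vesicles. Gad1 encodes GAD67, which makes much of the cell's GABA, and Gad2 encodes GAD65, which is found mostly at axon terminals. Slc32a1 encodes the vesicular GABA transporter VGAT. Lhx6 is a transcription factor that interneurons born in the medial ganglionic eminence keep into adulthood, Pvalb encodes the calcium-binding protein of fast-spiking basket and axo-axonic cells, and Calb2 encodes calretinin, which marks interneurons that often contact other interneurons and, in the mouse, also mossy cells. Reln encodes the secreted glycoprotein reelin, made in the adult hippocampus by interneurons of several classes and by the remaining Cajal-Retzius cells. In bulk tissue, fewer cells of a type and less RNA per cell cannot be told apart, and this holds for every value below.

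Gad1, Gad2, Slc32a1 and Lhx6 all lie on mouse chromosome 2 in the GRCm38 annotation (GENCODE M21). Gad1 spans chr2:70553072-70602014 on the plus strand, Gad2 chr2:22622205-22693874 on the plus strand, Slc32a1 chr2:158610767-158615748 on the plus strand and Lhx6 chr2:36081953-36105408 on the minus strand. Pvalb lies at chr15:78191114-78206400, Reln at chr5:21884454-22344702 and Calb2 at chr8:110137502-110168210, all on the minus strand. The antisense gene Gad1os overlaps Gad1 and reached at most 1.92 normalized counts in any library. The antisense gene Gm14205 overlaps Slc32a1 and was not analysed here, and since the sources used here do not say whether counting kept strands apart, its reads cannot be told apart from those of Slc32a1. The same holds for the antisense genes Gm10475 and Gm16110, which overlap Reln.

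Of the 7 genes, 6 had at least 1 window in the RefSeq promoter sequences for GRCm38.p6 and Calb2 had none. The 250 bases before the start of Slc32a1 and Reln are shown because these were the 2 members past the test in a training comparison, and no other window is printed. They run 5′ to 3′ on the gene's own strand, and capitals mark matches on either strand to GGGCGG (the GC box) or CACGTG (an E-box). TATAAA (the TATA box) and TAATTA (a homeodomain core) were searched in the same way and had no match in either window.
Slc32a1, chr2:158610508-158610757: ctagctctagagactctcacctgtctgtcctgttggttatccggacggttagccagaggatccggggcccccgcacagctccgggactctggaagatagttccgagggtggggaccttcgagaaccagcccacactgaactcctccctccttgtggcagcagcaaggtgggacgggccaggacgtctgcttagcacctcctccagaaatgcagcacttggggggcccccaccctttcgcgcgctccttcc
Reln, chr5:22344706-22344955: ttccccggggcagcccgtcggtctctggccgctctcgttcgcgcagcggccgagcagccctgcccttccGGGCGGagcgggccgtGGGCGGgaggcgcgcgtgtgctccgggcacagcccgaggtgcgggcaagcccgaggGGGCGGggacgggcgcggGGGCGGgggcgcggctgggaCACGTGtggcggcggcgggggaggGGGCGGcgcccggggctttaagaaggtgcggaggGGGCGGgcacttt
The Reln window held 6 GC boxes and 1 E-box, and 80.0% of its bases were G or C, against a median of 52.4% over the 32851 windows. The Slc32a1 window held none of the 4 motifs and was 62.4% G or C. GGGCGG was found in 32.7% of all windows, CACGTG in 6.02%, TATAAA in 12.4% and TAATTA in 4.84%, and TAATTA in none of the 9 windows of the members. These matches describe the letters only, and no factor's binding was measured.

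Gad1 was the most abundant member and the steadiest. Over the 16 libraries it stood at 1900 ± 122 normalized counts (SD, n = 16), between 1744 and 2107, which is a coefficient of variation of 6.40%. Gad2 stood at 931 ± 70.1 and varied by 7.53%. Reln stood at 973 ± 110, Slc32a1 at 237 ± 38.8, Pvalb at 101 ± 16.2, Lhx6 at 81.7 ± 14.7 and Calb2 at 33.2 ± 16.4 (SD, n = 16 for each). Calb2 rested on about 4 to 73 reads per library and varied most, by 49.5%.

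Levels of different genes can be set side by side only per length, so the normalized counts were divided by the length of the longest annotated transcript. On that scale Gad1 stood at 528 ± 33.8 per kb and Gad2 at 162 ± 12.2 per kb (SD, n = 16), and no library of Gad2 reached any of Gad1. Pvalb followed at 103 ± 16.6 per kb, Slc32a1 at 84.7 ± 13.9 and Reln at 83.2 ± 9.38, which lay within each other's spread. Lhx6 at 23.5 ± 4.24 per kb and Calb2 at 23.2 ± 11.5 per kb did not differ beyond their spread either. The values depend on the length used. Over the union of all annotated exons Gad1 fell to 249 per kb and Reln to 41.0, while Slc32a1, which has 1 annotated transcript, stayed at 84.7. The order of the 5 highest was kept, and Calb2 at 19.0 per kb then stood above Lhx6 at 17.0.

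**Figure D1:**
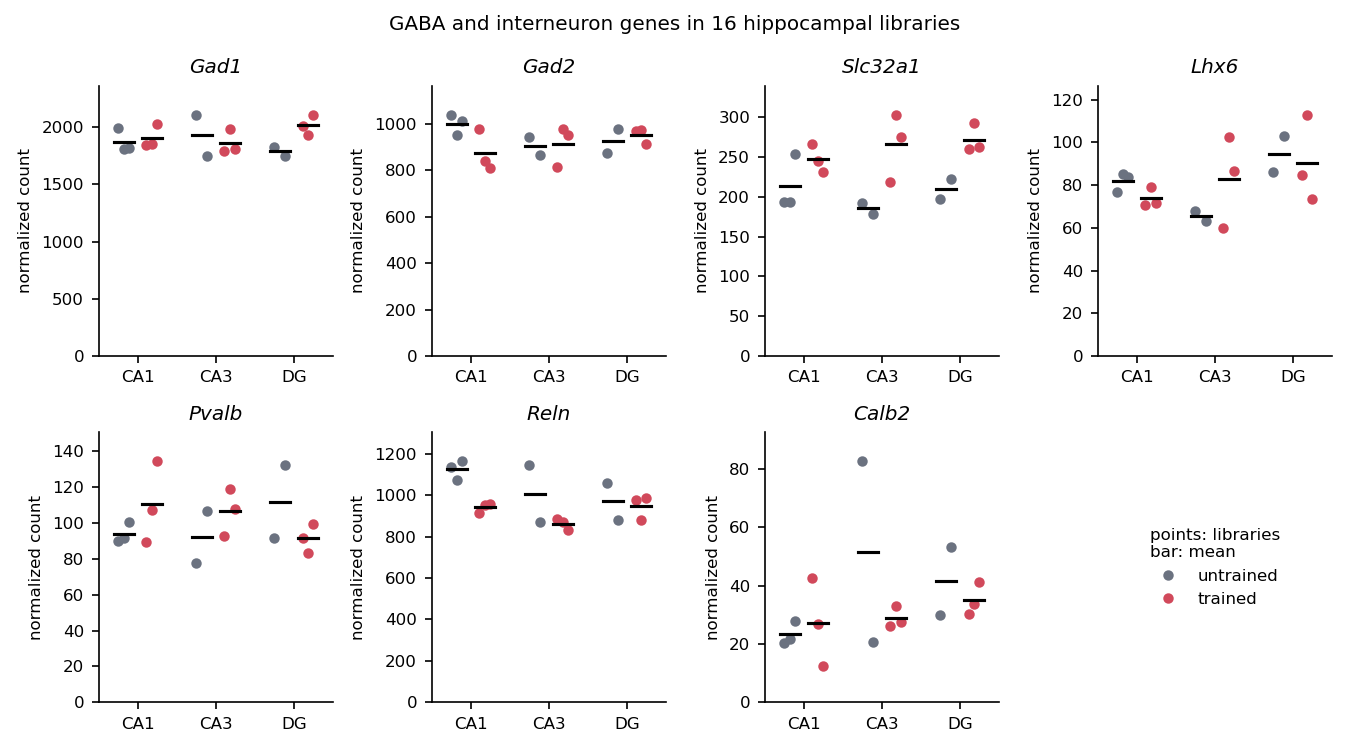
Normalized counts (y axis, from 0) of the 7 genes in each library, by labelled subregion (x axis) and training (grey, untrained; red, trained), with a black bar at each group mean. Slc32a1 lay higher in most trained libraries, Reln lay lower in the 3 trained CA1 libraries, and Gad1 stayed between 1744 and 2107 throughout.

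The labelled subregions were checked against marker genes before the members were compared between them. The summed level of 5 dentate granule cell markers (Prox1, Dsp, C1ql2, Tdo2 and Stxbp6) averaged 8250 in trained and 7915 in untrained CA1, 7368 and 9763 in CA3, and 7665 and 9503 in DG, so that the libraries labelled CA1 and CA3 held about as much of these transcripts as those labelled DG. No marker of this list was at 0 in any group. The summed level of 5 CA1 pyramidal cell markers (among them Wfs1, Fibcd1, Pou3f1 and Mpped1) was highest in untrained CA1, at 3222 to 5210, and lay at 1599 to 1986 in trained CA1, against 1343 to 2106 in the DG libraries and 922 to 1613 in the CA3 libraries. The summed level of 5 CA3 markers (Coch, Iyd, Cpne4, Spock1 and Grik4) averaged 4488 in trained and 3251 in untrained CA3, against 3787 and 3654 in DG and 3357 and 2343 in CA1. Averaged over training, the pyramidal cell markers followed the labels between CA1 and CA3 libraries. Of the CA1 markers, 5 of 5 were higher in CA1 and 4 past the test, and 4 of 5 CA3 markers were lower in CA1 and 2 past it. By group they did so less: the CA3 marker sum averaged higher in trained CA1 than in untrained CA3. The CA1 marker sums of trained CA1, from 1599, overlapped those of CA3, up to 1613. The granule cell markers did not separate the libraries labelled CA1 or CA3 from those labelled DG, with 0 of 5 past the test in limma in either comparison, and the names are used below only for what the libraries are labelled.

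**Figure D2:**
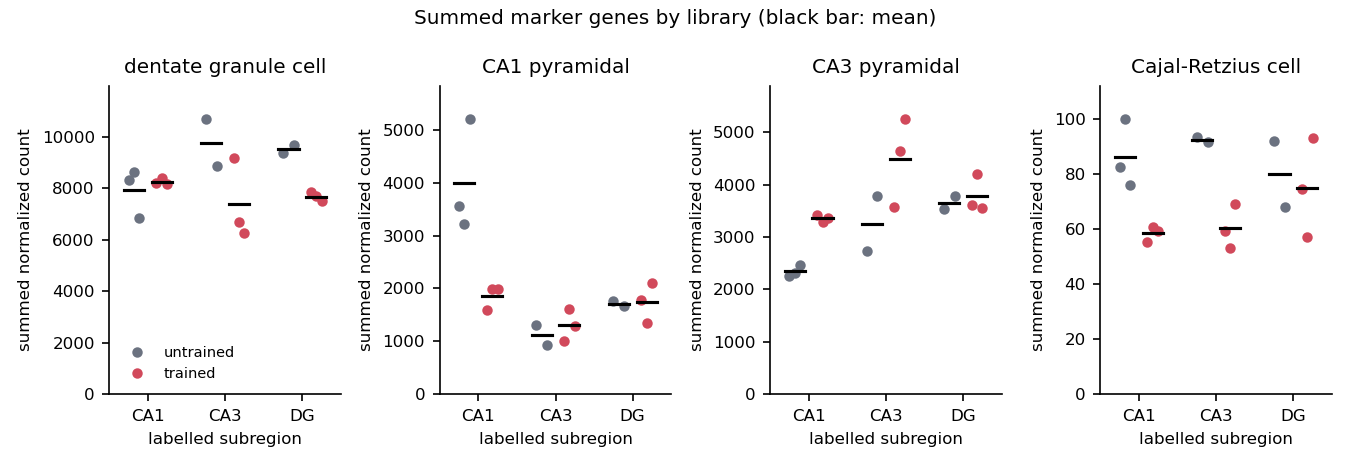
Summed normalized counts of marker genes (y axes, from 0) in each library, by labelled subregion and training (grey, untrained; red, trained; black bar, group mean). Granule cell markers averaged 7368 to 9763 in the CA1 and CA3 groups and 7665 to 9503 in the DG groups, and CA1 markers stood apart only in untrained CA1. Cajal-Retzius cell marker sums were lower in all trained than in all untrained libraries of CA1 and of CA3, where 24% and 33.9% of single genes did not overlap. Of these 5 markers, 4 averaged under 10 in trained CA1 and 3 in trained CA3.

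Between libraries of different labelled subregions, none of the 7 members passed the test, which was limma on the log2(normalized count + 2) scale with Benjamini-Hochberg adjustment over all genes tested and a threshold of 0.05. The count was 0 of 7 for CA1 against DG, where 4.05% of the 14673 genes tested passed, 0 of 7 for CA1 against CA3, where 0.988% passed, and 0 of 7 for CA3 against DG, where 0.00682% passed. At an unadjusted p under 0.05 the counts were 0, 1 and 1, against 19.6%, 10.2% and 6.86% of all genes.

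Gad1 levels were close to equal in the 3 labels. The means over trained and untrained libraries were 1890 ± 94.3 in CA1 (SD, n = 6), 1889 ± 151 in CA3 (n = 5) and 1924 ± 143 in DG (n = 5). The log2 difference of CA1 from DG was -0.0068 with a 95% interval of -0.11 to 0.10. For Gad2 the difference of smallest p was that of CA3 from DG, -0.047 (-0.18 to 0.083), and for Slc32a1 also that of CA3 from DG, -0.11 (-0.31 to 0.087).

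Over all libraries the interneuron class genes varied more than Gad1 and Gad2, and their subregion intervals were wider. Reln varied less than Slc32a1, by 11.3% against 16.4%. Lhx6 averaged 77.8 ± 5.98 in CA1, 76.1 ± 18.1 in CA3 and 92.1 ± 15.7 in DG, and its log2 difference of CA3 from DG was -0.32 (-0.62 to -0.023), with an unadjusted p of 0.0359 and an adjusted p of 0.694 in limma. Reln averaged 1033 ± 105 in CA1, 919 ± 126 in CA3 and 956 ± 78.0 in DG, and its log2 difference of CA1 from CA3 was 0.15 (0.021 to 0.28), with an unadjusted p of 0.0251 and an adjusted p of 0.370 in limma. Both intervals leave 0 out, and neither difference passed once all genes were counted.

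Calb2, the calretinin gene, had the largest estimate and the least certain. It averaged 25.4 ± 10.1 normalized counts in CA1, 38.0 ± 25.3 in CA3 and 37.7 ± 9.82 in DG, and CA1 differed from DG by -0.60 on the log2 scale, with an interval of -1.26 to 0.052 and an adjusted p of 0.303 in limma. Markers of mossy cells, which also make calretinin in the mouse, summed to 112 to 146 in untrained and 109 to 114 in trained DG. They summed to 132 to 164 in untrained and 112 to 128 in trained CA3 and to 111 to 131 over the CA1 libraries, so this list did not set DG apart. Pvalb averaged 102 ± 17.2, 101 ± 15.8 and 99.4 ± 19.0 in CA1, CA3 and DG, and its subregion difference of smallest p, CA1 from CA3, was 0.039 (-0.22 to 0.30).

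The training comparison asked which transcripts differed after recall of the avoidance memory. In all subregions combined, with the subregion as a term, 1 of the 7 members passed the test, against 10.3% of the 14673 genes tested. In CA1 1 of 7 passed, against 5.23% of 13588 genes. In CA3 0 of 7 passed, against 0.852% of 13848 genes, and in DG 0 of 7 passed, against 3.39% of 13935 genes. At an unadjusted p under 0.05 the members counted 2 in the combined comparison, 2 in CA1, 1 in CA3 and 2 in DG, against 25.5%, 18.9%, 15.8% and 19.5% of all genes. The median log2 change of the members was 0.010 in the combined comparison, beside -0.0091 over all genes.

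**Figure D3:**
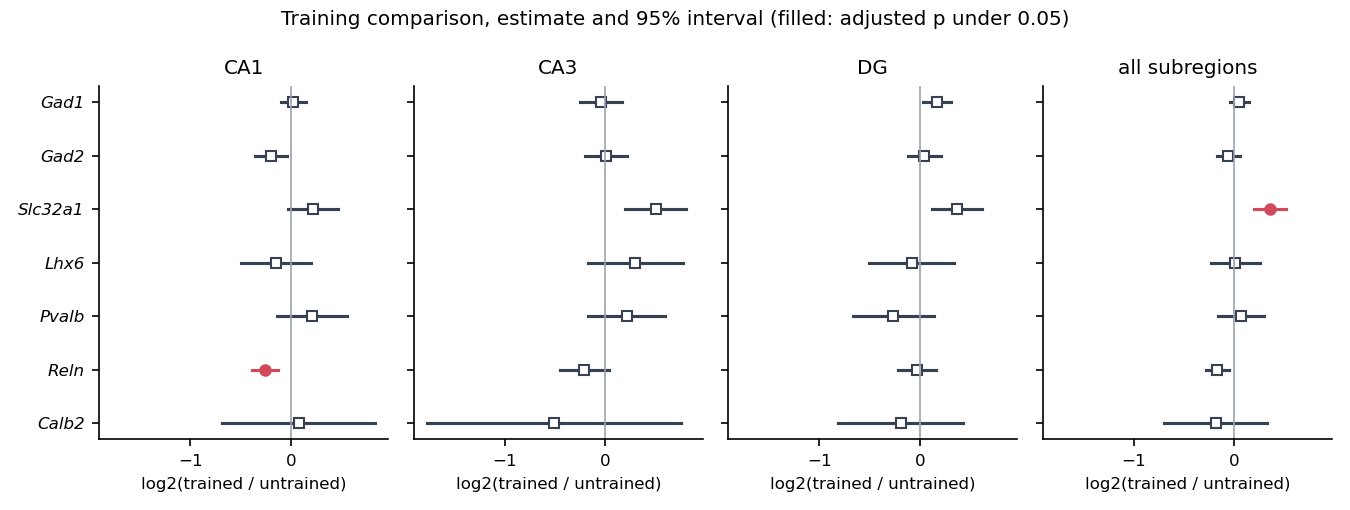
Log2 ratio of trained to untrained (x axis) for each member in CA1, CA3, DG and all subregions combined, with the limma estimate and its 95% interval; filled red circles have an adjusted p under 0.05 and open squares do not. Slc32a1 passed in the combined comparison at 0.35 and Reln in CA1 at -0.25.

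Slc32a1, the vesicular GABA transporter, was higher after training. In the CA1 libraries its normalized count was 267, 245 and 232 in trained mice 1, 2 and 3, and 194, 194 and 253 in untrained mice 1, 2 and 3. In CA3 it was 219, 303 and 276 in the trained libraries and 193 and 179 in the untrained ones. In DG it was 260, 293 and 263 in the trained libraries and 198 and 223 in the untrained ones, from mice 1 and 3.
All trained libraries lay above all untrained libraries in CA3 and in DG, and in CA1 the third untrained library lay among the trained ones.

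Slc32a1 averaged 262 ± 27.2 over the 9 trained libraries (SD, 3 mice) and 205 ± 25.2 over the 7 untrained ones (SD, 3 mice), a log2 change of 0.35 with a standard error of 0.077 and an adjusted p of 0.00489 in limma, which treats the libraries of a mouse as independent. With the mouse as a block, a fit added after seeing the data, the log2 change was 0.35 and the adjusted p 0.00334 in limma. The consensus correlation of that fit was negative, at -0.0355, so the block did not make the test stricter. It also rests on mouse numbers that Xist goes against for CA3 untrained 1. By subregion the log2 change was 0.22 in CA1 (95% interval -0.030 to 0.47, adjusted p = 0.339), 0.50 in CA3 (0.20 to 0.80, adjusted p = 0.119) and 0.37 in DG (0.12 to 0.62, adjusted p = 0.0957), all by limma. The DG libraries had 7567 and 8636 genes at 0 in untrained and 3479 to 5944 in trained mice, which bears on every training value in DG and whose part in them was not tested. Groups that do not overlap were common, at 33.9% of genes in CA3 and 35.6% in DG, so that the separation of Slc32a1 there was shared with many genes. Its change did not differ detectably between subregions. The difference of the training effect was -0.28 for CA1 against CA3 (interval -0.66 to 0.092), -0.15 for CA1 against DG (-0.52 to 0.23) and 0.13 for CA3 against DG (-0.26 to 0.53).

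The combined call for Slc32a1 moves with the mice compared and with sex-linked transcripts. Without untrained mouse 1 its log2 change was 0.30 and its adjusted p 0.0893 in limma. Since Xist separated all trained libraries from 6 untrained ones, training and sex-linked transcripts cannot be told apart in them. With a score of sex-linked transcripts as a covariate the log2 change of Slc32a1 was 0.34 and its adjusted p 0.513 in limma. In the library labelled CA3 untrained 1, with its high Xist, Slc32a1 was 193, within the 179 to 253 of the 6 other untrained libraries. Without that library the log2 change was 0.34 over all subregions (adjusted p = 0.0144 in limma) and 0.55 in CA3 (adjusted p = 0.416). With a term for the libraries with many genes at 0 it was 0.37 over all subregions (adjusted p = 0.00416). Markers of other cells moved in the same comparison, with 4 of 4 tested immature granule cell markers past the test as lower after training, 2 of 5 CA3 pyramidal cell markers as higher and 1 as lower, 2 of 5 astrocyte markers as lower and 1 of 3 Cajal-Retzius cell markers as lower, and their part in the Slc32a1 difference was not tested.

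The synthesis enzymes did not share the difference seen in Slc32a1. Gad1 averaged 1929 ± 110 in trained (SD, n = 9) and 1864 ± 135 in untrained libraries (SD, n = 7), a log2 change of 0.049 with an interval of -0.047 to 0.15 and an adjusted p of 0.549 in limma. Gad2 averaged 915 ± 73.2 in trained and 953 ± 64.6 in untrained libraries, a log2 change of -0.060 with an interval of -0.17 to 0.051 and an adjusted p of 0.525. Both intervals end below the lower bound of the interval for Slc32a1, which ran from 0.19 to 0.51.

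Within subregions, each enzyme had 1 comparison with an unadjusted p under 0.05, and neither passed after adjustment. Gad1 in DG was 2011, 1930 and 2107 in trained and 1830 and 1744 in untrained libraries, without overlap, as for 35.6% of genes there, a log2 change of 0.17 (adjusted p = 0.161 in limma). Gad2 in CA1 was 978, 841 and 809 in trained and 1039, 952 and 1015 in untrained libraries, which overlapped, a log2 change of -0.20 (adjusted p = 0.144 in limma). Without trained mouse 1 that change was -0.28 and passed (adjusted p = 0.0473). The other changes were 0.025 for Gad1 in CA1 and -0.044 in CA3, and 0.0095 for Gad2 in CA3 and 0.043 in DG.

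Read within a library, where any rescaling of the whole library cancels, the transporter stood higher relative to Gad2 in every trained library than in any untrained one. Slc32a1 was 28.6% ± 1.42 of Gad2 in trained (SD, n = 9) and 21.5% ± 2.10 in untrained libraries (SD, n = 7). The trained libraries ran from 26.8% to 31.0% and the untrained ones from 18.6% to 25.0%. The library labelled CA3 untrained 1, with its high Xist, stood at 20.4%. In CA1 the separation came from Gad2 as well as from Slc32a1. There the third untrained library had Slc32a1 at 253, above trained mice 2 and 3 at 245 and 232, but Gad2 at 1015 against 841 and 809. Of 14672 genes set over Gad2 in this way, 0.641% separated all 9 trained from all 7 untrained libraries. This ratio was singled out after the values were seen, as the only 1 of the 21 ratios between members that separated them, and it was not tested.

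Relative to Gad1 the libraries overlapped. Slc32a1 was 13.6% ± 1.46 of Gad1 in trained (SD, n = 9) and 11.1% ± 1.72 in untrained libraries (SD, n = 7), with ranges of 11.5% to 15.3% and 9.15% to 14.0%. These are ratios of normalized counts, not of molecules, since the 3 transcripts differ in length.

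**Figure D4:**
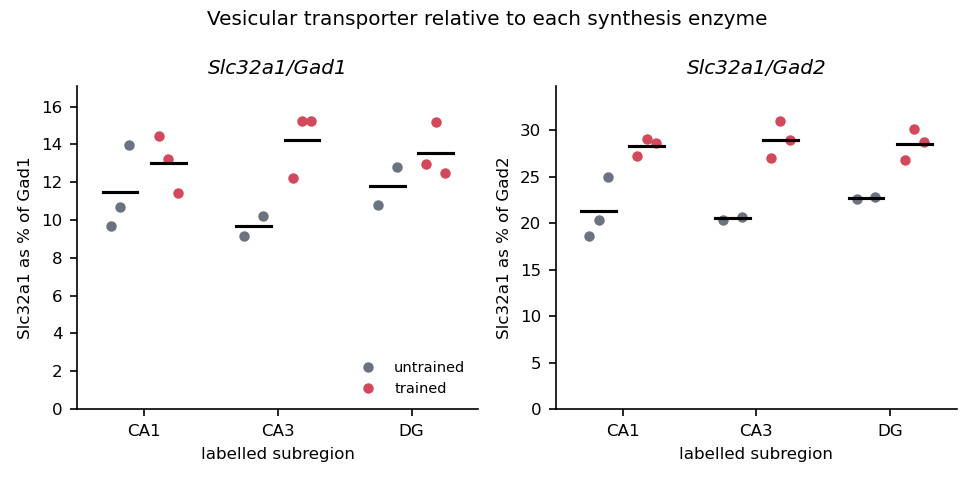
Slc32a1 as a percentage of Gad1 (left) and of Gad2 (right) within each library (y axes, from 0), by labelled subregion and training (grey, untrained; red, trained; black bar, group mean). Against Gad2, the 9 trained libraries lay between 26.8% and 31.0% and the 7 untrained ones between 18.6% and 25.0%.

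Reln, the reelin gene, was lower in trained than in untrained CA1. The 3 trained libraries held 915, 953 and 959 normalized counts, and the 3 untrained ones held 1138, 1073 and 1162. The groups did not overlap, as for 24% of the genes tested there, and averaged 942 ± 23.7 and 1124 ± 46.3 (SD, n = 3 each), a log2 change of -0.25 with a standard error of 0.062 and an adjusted p of 0.0204 in limma. Leaving out trained mouse 1, trained mouse 2 or untrained mouse 1 put the adjusted p at 0.0861, 0.0706 and 0.106, with log2 changes of -0.23, -0.26 and -0.24. In 1 fit of 6 groups the change was -0.25 and did not pass (adjusted p = 0.0815 in limma).

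In CA3 Reln was 883, 869 and 833 in trained and 1143 and 868 in untrained libraries, and in DG 974, 878 and 988 in trained and 1060 and 878 in untrained ones. The groups overlapped in both. The log2 change was -0.21 in CA3 (interval -0.45 to 0.033, adjusted p = 0.381) and -0.029 in DG (-0.22 to 0.16, adjusted p = 0.897), and over all subregions it was -0.17 (-0.29 to -0.056, adjusted p = 0.0506), all by limma. With the mouse as a block the change over all subregions was also -0.17 and passed (adjusted p = 0.0378), in the fit of negative consensus correlation, -0.0355. Without untrained mouse 1 the change was -0.082 (adjusted p = 0.491), and with the score of sex-linked transcripts as a term it was -0.36 (adjusted p = 0.245). In CA3 the change was -0.010 (adjusted p = 0.985) without the library labelled CA3 untrained 1. A difference of the training effect between CA1 and DG was not shown, at -0.22 (interval -0.49 to 0.038, adjusted p = 0.365).

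Other transcripts moved with Reln in CA1, and their part in its difference was not tested. The 5 Cajal-Retzius cell markers (Trp73, Lhx1, Lhx5, Ebf3 and Nhlh2), of which 3 were high enough to test, summed to at most 60.8 in trained and at least 76.1 in untrained CA1, to 53.2 to 69.2 and 91.5 to 93.6 in CA3, and to 57.0 to 93.0 and 68.0 to 92.1 in DG. Of the 5, 4 averaged under 10 normalized counts in trained CA1 and 2 in untrained CA1, and Nhlh2 was at 0 in the third trained CA1 library. Trp73 overlapped in CA1, at 26.9 to 37.5 in trained and 33.9 to 45.2 in untrained libraries. All 3 tested ones had estimates below 0 in CA1 and none passed, and in the combined comparison Nhlh2 did, at a log2 change of -1.21 (adjusted p = 0.0455 in limma). All 5 CA1 pyramidal cell markers were lower in trained CA1 and 2 passed, with a median log2 change of -1.01 over the 5. Of the 5 CA3 pyramidal cell markers, 3 passed as higher and 1 as lower. All 4 immature granule cell markers (Dcx, Sox11, Igfbpl1 and Draxin) were lower in trained CA1 and 2 passed, with a median log2 change of -0.94 and sums of 612 to 618 in trained and 765 to 941 in untrained libraries. Of the 5 astrocyte markers, 4 were lower in trained CA1 and 1 passed, with a median log2 change of -0.028. The library labelled CA3 untrained 1, with its high Xist, had a Reln count of 1143, above all 9 trained libraries, and without it the log2 change over all subregions was -0.12 (adjusted p = 0.169 in limma). Genes at 0 numbered 8323 to 9759 in trained and 3124 to 5425 in untrained CA1, and the part of this in the Reln difference was not tested.

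No training difference was detected for the remaining class genes, and their intervals leave room for sizeable ones. Lhx6 averaged 82.4 ± 16.6 in trained (SD, n = 9) and 80.9 ± 13.2 in untrained libraries (SD, n = 7), a log2 change of 0.010 (-0.23 to 0.25). Pvalb averaged 103 ± 16.1 and 98.4 ± 17.3, a log2 change of 0.065 (-0.17 to 0.30). By subregion the estimates were 0.21 in CA1, 0.21 in CA3 and -0.26 in DG, where it was -0.0026 without untrained mouse 3, and the differences between subregions did not pass the test (adjusted p of 0.342 to 0.999 in limma). The log2 changes of Lhx6 were -0.14 in CA1, 0.30 in CA3 and -0.083 in DG.

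Calb2 was 42.7, 27.0 and 12.5 in trained and 20.4, 21.8 and 27.9 in untrained CA1, 26.2, 33.1 and 27.4 in trained and 82.6 and 20.7 in untrained CA3, and 30.2, 33.8 and 41.2 in trained and 30.0 and 53.3 in untrained DG. The groups overlapped in every subregion, and the highest value was that of the library labelled CA3 untrained 1. The summed level of the 5 thalamus markers was 535 in that library, 524 in DG untrained 3 and 279 to 440 in the other 14. Its mossy cell marker sum was 164, against 109 to 146 in all other libraries. Its dentate granule cell and striatum marker sums, at 10681 and 538, were also the highest of all. The part of these in the Calb2 count was not tested. The log2 change was -0.19 over all subregions (-0.70 to 0.33), 0.078 in CA1, -0.51 in CA3 and -0.19 in DG. Without the library labelled CA3 untrained 1 it was 0.062 over all subregions and 0.43 in CA3, and with the score of sex-linked transcripts as a term it was -1.26 over all subregions (adjusted p = 0.354 in limma).

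For the 3 differences of the training effect between subregions, 0 of the 7 members passed, against 2.75% of genes for CA1 against DG, 0.0273% for CA1 against CA3 and 0.164% for CA3 against DG. At an unadjusted p under 0.05 the count was also 0 in each, against 17.8%, 6.71% and 11.7% of genes.

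The members were next set among related genes. Of the enzymes of GABA breakdown, the transaminase gene Abat had a log2 change of 0.015 (95% interval -0.081 to 0.11, adjusted p = 0.876 in limma) over all subregions, and Aldh5a1, of the next step, -0.012 (-0.10 to 0.078, adjusted p = 0.897). Neither passed the test.

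Of 34 genes of interneuron classes, 32 were tested in the combined comparison and 4 passed, all higher after training, as did 6.28% of all genes, with a median log2 change of 0.087 beside -0.0091 over all genes. Kcnc2 and Kcnc1 encode Kv3 potassium channels of fast-spiking cells, and their log2 changes were 0.40 (adjusted p = 0.00181) and 0.14 (adjusted p = 0.0411) in limma. Nr2f2, which encodes the transcription factor COUP-TFII of caudally born interneurons, changed by 0.72 (adjusted p = 0.0192), and Nos1, the neuronal nitric oxide synthase gene, by 0.22 (adjusted p = 0.00744). With the score of sex-linked transcripts as a covariate none of the 4 passed. Kcnc1 was lost, among others, without trained mouse 1 (adjusted p = 0.118) or 2 (0.236) or untrained mouse 2 (0.138) or 3 (0.0830), or without the library labelled CA3 untrained 1 (0.0814). Nr2f2 was lost without trained mouse 3 (0.0703) or untrained mouse 2 (0.0942) or 3 (0.0574) or without that library (0.0546), and Nos1 without trained mouse 2 (0.0793).

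Of the 5 tested genes that all interneurons share early in life (among them Dlx1, Dlx2, Dlx5 and Dlx6os1), 0 passed in the combined comparison in limma, and 0 had an unadjusted p under 0.05, and their median log2 change was 0.072. Of 14 tested genes of medial eminence classes 2 passed, and of 13 of caudal eminence and other classes 2 passed.

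**Figure D5:**
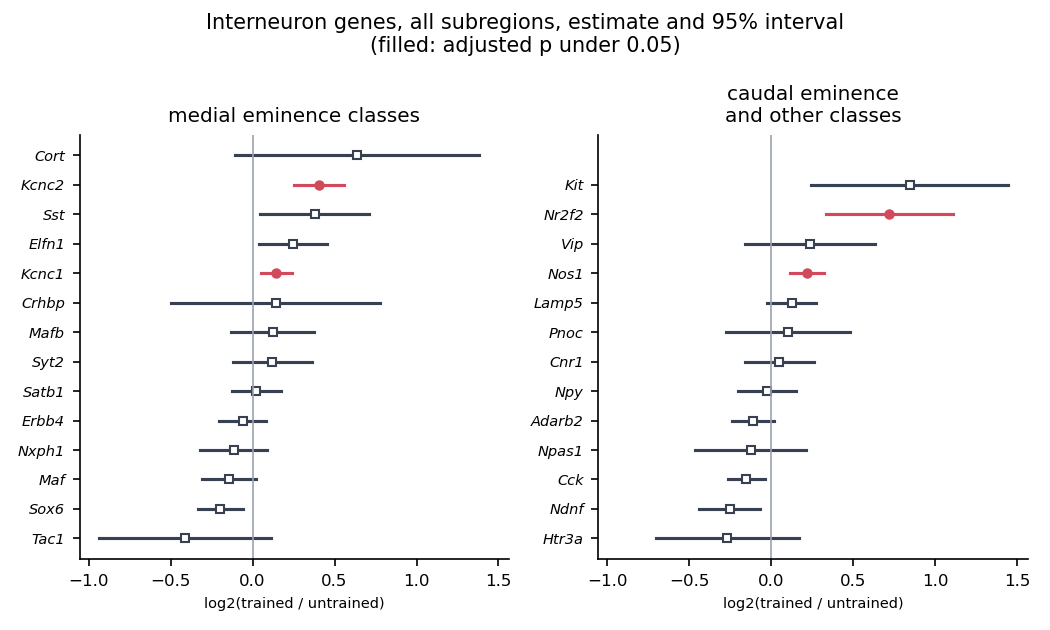
Log2 ratio of trained to untrained over all subregions (x axis) for genes of the medial eminence classes (left) and of caudal eminence and other classes (right) of interneurons, with the limma estimate and its 95% interval; filled red circles have an adjusted p under 0.05. Kcnc1, Kcnc2, Nr2f2 and Nos1 passed, all above 0, and most other estimates had intervals across 0.

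Within subregions 1 of 31 tested genes of the interneuron lists passed in CA1, against 5.23% of all genes, 1 of 32 in CA3, against 0.852%, and 3 of 32 in DG, against 3.39%. In CA1 Kcnc2 rose by 0.35 (adjusted p = 0.0112 in limma). In CA3 Sst, the somatostatin gene of dendrite-targeting interneurons, rose by 0.82 (adjusted p = 0.0101 in limma), from 202 and 182 normalized counts in untrained to 328, 384 and 314 in trained libraries. There 2 of 4 tested choroid plexus markers passed as lower, with a median log2 change of -2.09. The 5 listed ones summed to 804 and 1111 in untrained and 235 to 314 in trained CA3, and their part in the Sst call was not tested. In DG Nr2f2 rose by 0.999 (adjusted p = 0.0113), Kit, a receptor tyrosine kinase gene, by 1.10 (adjusted p = 0.0173), and Satb1, a chromatin organizer of medial eminence interneurons, fell by 0.34 (adjusted p = 0.0339). Markers of other cells moved in DG too, with 2 of 4 tested thalamus markers past the test as lower (median log2 change -0.81 over the 4), 2 of 5 dentate granule cell markers (median -0.30), 1 of 4 CA2 pyramidal cell markers and 1 of 4 endothelium markers, all as lower, and the part of these and of the genes at 0 in the 3 calls was not tested. The Sst call was lost without trained mouse 2 (adjusted p = 0.0927), untrained mouse 1, whose CA3 library is the one with high Xist (0.0682), or untrained mouse 2 (0.0724). Satb1 in DG was lost without trained mouse 1 (0.144), 2 (0.141) or 3 (0.110) or untrained mouse 1 (0.0908). Nr2f2 and Kit in DG were lost without trained mouse 2 (0.0945 and 0.0559), and Kcnc2 in CA1 without untrained mouse 2 (0.0673). In 1 fit of 6 groups Kcnc2, Sst, Nr2f2 and Kit did not pass (0.130, 0.112, 0.0803 and 0.227). Between subregions Npy, the neuropeptide Y gene, was lower in CA1 than in DG by 0.38 on the log2 scale (adjusted p = 0.0418 in limma), and it was the only gene of the interneuron lists that passed in any of the 3 subregion comparisons. That call was lost in 6 alternatives, among them without trained mouse 1 (0.150), 2 (0.126) or 3 (0.0657) and without untrained mouse 3, where the change was -0.24 (0.276).

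The members did not rise and fall as a set from library to library. After group means were removed, Pearson's r over the 16 libraries was 0.72 between Gad2 and Slc32a1, 0.71 between Slc32a1 and Lhx6, 0.72 between Gad1 and Reln, 0.13 between Gad1 and Gad2, and -0.011 between Gad1 and Slc32a1. These describe libraries that share mice, dissections and depth. Pvalb had its r farthest from 0 with Reln (-0.44) and Calb2 (-0.41). Among 10764 genes with a mean of at least 50, the profile of the mean of Gad1, Gad2 and Slc32a1 was most like those of Tomm40 (r = 0.92), Erbb4 (0.92), Fgf1 (0.88), Rab3b (0.86) and Psmf1 (0.86). Among the closest to Reln were Desi2 (0.93), Gjb6 (0.92) and Ranbp17 (0.92), for Lhx6 Clasp1 (0.88), for Pvalb Dld (0.90) and for Calb2 Armc10 (0.94).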

How the data were processed

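Libraries were made from total RNA depleted of ribosomal RNA, with random-primed cDNA, and sequenced as read pairs. Per the labels and methods, the authors aligned reads with STAR and counted them with Salmon to make the deposited table of each library, whose signal is an estimated count per gene rescaled between libraries; the rescaling is not given in the sources used here. The labels name the build GRCm38 and the methods name both MM10 and GRCm39, and no coordinate was taken from the deposited files. Of 24972 symbols, 24464 were found in the reference and 2 were listed more than once.

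Because the deposited values are not whole reads, log2(value + 2) was tested with limma 3.58.1 (R 4.3.3) using a mean-variance trend and robust moderation, on genes with a value of at least 10 in as many libraries as the smallest group holds, with Benjamini-Hochberg adjustment over all genes tested and a threshold of 0.05. Training was tested within each subregion and over all 16 libraries with subregion as a term; subregions and differences of the training effect were tested in 1 fit of 6 groups. The code was tested on simulated data. Genes named were the 7 members, list genes that passed, and the 5 most like profiles.

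The members and lists were chosen with earlier results of these data known. Same-numbered libraries of 1 training group were taken to come from 1 mouse, which Xist contradicts for CA3 untrained 1. Deviations from group means correlated between -0.28 and 0.212 over 14 such pairs. A fit with the mouse as a block gave a consensus correlation of 0.00678 and no member call between subregions. Mice of different training share only a number. P-values across libraries of 1 mouse treat them as independent. Alternatives were a pseudocount of 0.5, other filters, median-of-ratios rescaling (its factor was equal in all 16 libraries, so it could change nothing), no robust moderation, 1 fit of 6 groups, blocks, covariates and each mouse left out. To score sex-linked transcripts, log2 Xist was subtracted from the average log2 level of genes on the Y chromosome. Results on a few genes of the lists are not reported here.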

Additional observations from a re-analysis of the deposited data

Results flagged for a closer look

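Among the related genes, 2 differed between subregions in their training effect. Satb1 was 576, 566 and 598 normalized counts in trained and 766 and 708 in untrained DG, but 782, 736 and 674 in trained and 594, 624 and 647 in untrained CA1, and its training effect was larger in CA1 than in DG by 0.575 on the log2 scale (adjusted p = 0.0164 in limma's test of the difference). Trained libraries had more genes at 0 than untrained ones in CA1 and fewer in DG, and the part of this in the difference was not tested. The call was lost without trained mouse 1 (adjusted p = 0.0529), trained mouse 2 (0.0865) or untrained mouse 1 (0.130). Syt2, a synaptotagmin gene of fast-spiking interneurons, had a training effect larger in CA3 than in DG by 0.983 on the log2 scale (adjusted p = 0.049995 in limma). That call held without untrained mouse 3 (adjusted p = 0.0483) and was lost without each of the other 5 mice, at an adjusted p of 0.0837 to 0.307. It was also lost without the library labelled CA3 untrained 1 (0.141), with no filter on low values (0.0653), with a pseudocount of 0.5 (0.0536) and with no robust moderation (0.0875). No member met this criterion, and no member stood far from the others among the 9 trained or the 7 untrained libraries by Dixon's ratio of gap to range.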

How the results depend on the processing

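Over all subregions the number of members past the test was 2 with a value of at least 10 required in every library, 2 in 1 fit of 6 groups, 2 with median centring and 2 with the mouse as a block (consensus correlation -0.0355), both chosen after seeing the data, as Reln then joined Slc32a1 (adjusted p of 0.0378 to 0.0434); it was 0 once the score of sex-linked transcripts was a term, and 0 to 2 with each mouse left out. In CA1 it was 0 in 1 fit of 6 groups (Reln, adjusted p = 0.0815) and 0 to 1 with each mouse left out, where without trained mouse 1 the member past the test was Gad2. In CA3 it was 1 in 1 fit of 6 groups (Slc32a1, adjusted p = 0.0425) and 0 to 1 with each mouse left out, and in DG 0 to 1 (Slc32a1 without untrained mouse 3, adjusted p = 0.0323). With the replicate number as a block, which pairs no mice, CA3 had 1 (Slc32a1, adjusted p = 0.0349), and the signs of Gad2 in CA3 (-0.022), Reln in DG (0.024) and Lhx6 over all subregions (-0.011) turned. Same-number libraries of trained and untrained mice correlated between -0.204 and 0.0989 in their deviations. The cause of these changes was not tested.

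Signs that turned were all of values not past the test. With the sex-linked score they were Gad1 (-0.084) and Lhx6 (-0.14) over all subregions and Pvalb in CA1 against CA3 (-0.041). Without the library CA3 untrained 1 they were Gad1 (0.090), Pvalb (-0.011) and Calb2 (0.43) in CA3, Lhx6 (-0.016), Pvalb (-0.0031) and Calb2 (0.062) over all subregions, Pvalb in CA1 against CA3 (-0.073), and the training effect on Reln in CA3 against DG (0.019). With each mouse left out the ranges across 0 were, for Calb2, -0.30 to 0.51 in CA1, -1.46 to 0.43 in CA3 and -0.59 to 0.20 in DG; for Gad1, -0.019 to 0.071 in CA1, -0.18 to 0.090 in CA3 and -0.013 to 0.0048 in CA1 against DG; for Gad2, -0.051 to 0.091 in CA3, -0.035 to 0.12 in DG and -0.12 to 0.00053 in CA3 against DG; for Lhx6, -0.25 to 0.051 in DG and -0.11 to 0.10 over all subregions; for Pvalb, -0.011 to 0.44 in CA3, -0.070 to 0.18 over all subregions and -0.057 to 0.16 in CA1 against CA3; and for Reln, -0.17 to 0.11 in DG and -0.23 to 0.12 for the training effect in CA1 against CA3. Slc32a1 over all subregions ran from 0.30 to 0.43 over the alternatives and Reln in CA1 from -0.29 to -0.23, leaving aside median-of-ratios rescaling, which could change nothing. Depth limits Calb2 most, with as few as about 4 reads in a library.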
